A study of Saccharomyces cerevisiae with 20 samples.

Results

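The respiratory post-diauxic phase of aerobic batch cultures of Saccharomyces cerevisiae was compared with the fermentative exponential phase that came before it. The comparison used the 2 arrays titled for the aerobic post diauxic phase and the 2 titled for the aerobic expo phase, chosen by title alone, which are 4 of the 20 Affymetrix YG-S98 arrays of the series. The whole series followed 2 aerobic cultures over 6 phases and 2 anaerobic cultures over 4 phases. All cultures were of CEN.PK113-7D, a haploid laboratory strain (MATa MAL2-8C SUC2), grown in bioreactors at 30 °C and pH 5.0 on 20 g/L glucose, and the aerobic ones were sparged so that dissolved oxygen stayed above 40% of its starting level. The medium of the anaerobic cultures, used for a comparison at the end, also held ergosterol and Tween 80. The medium of all cultures held an antifoam agent, and expo and post diauxic samples differed in phase: growth on glucose in the first, and growth on ethanol and the other fermentation products after glucose had run out in the second. By the labels, samples with the same number come from the same bioreactor over time, so each group holds 2 cultures. The p-values measure the spread between cultures of 1 strain in 1 laboratory. This spread is taken for each probe set over all 10 groups of the 20 arrays, not over the 2 compared groups alone.

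On glucose, this yeast ferments most of the sugar to ethanol even when oxygen is present, and glucose represses the genes for respiration and for other carbon sources. Once glucose is gone, the Snf1 kinase releases this repression, the activators Cat8, Adr1 and the Hap2/3/4/5 complex switch on genes for ethanol use, and ethanol is oxidised to acetate and then activated to acetyl-CoA. The glyoxylate cycle and gluconeogenesis turn acetyl-CoA into sugar phosphates, while the tricarboxylic acid cycle and the respiratory chain supply the energy.

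The values are signals in arbitrary units, scaled by the authors to a common average per array, and signals below 12 were set to 12, here called the floor. The trimmed mean signal was 240.2 to 240.3 on the 4 arrays, whereas median signals were 51.2 and 44.1 in expo and 69.4 and 68.2 in post diauxic. In expo, 2769 and 2822 features were below the floor, against 2555 and 2488 in post diauxic. Signals of cytosolic ribosomal protein genes took 25.2% and 29.2% of the total over protein-coding features in expo and 16.1% and 16.2% in post diauxic. The 3′ to 5′ signal ratio of the control transcript SRB4, a sign of RNA and labelling quality, was 3.95 and 4.16 in expo against 8.16 and 11.2 in post diauxic, while that of ACT1 was 1.55 and 1.58 against 1.6 and 1.79 and that of SPT15 was 3.03 and 4.72 against 2.36 and 3.3. The part of these ratios in the results below was not tested. Each array measured the RNA of a whole culture, so a change in the share of cells that express a gene and a change per cell cannot be told apart.

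The 2 expo arrays stood apart from each other more than the 2 post diauxic arrays did. Over the genes tested, 382 were more than 2-fold higher in expo culture 1 than in expo culture 2 and 91 the other way, against 9 and 51 for post diauxic. HXT1, a low-affinity glucose transporter induced by high glucose, had signals of 33.1 in expo culture 1 and 1117.7 in expo culture 2. HXK1, a hexokinase that is repressed on high glucose, had the opposite order, with 6015.2 and 264.7, and HXT7, a high-affinity transporter, had 5971.4 and 1032.3. The probe set of HXT7 cannot be separated from its near-identical neighbour HXT6. All 3 differed more between the expo cultures than between the post diauxic cultures. Over the tested genes, expo culture 1 correlated better with late expo culture 2 (r = 0.988) than with expo culture 2 (r = 0.963), and expo culture 2 correlated better with late expo culture 1 (r = 0.986) than with late expo culture 2 (r = 0.96). These correlations are across genes of arrays that share a scale and are descriptions. The labels were kept as given, and whether the numbers or times of these 4 samples were interchanged could not be settled from them. The call of a gene named below held without any 1 of the 4 compared arrays unless the text says otherwise. Such a fit judges the array that is left in a group by the spread within the other groups. With the 4 compared arrays alone in the fit, 151 named genes lost their call, among them HXT4, EEB1, GPP1, MIG2 and ALD4. The 381 named genes include some that had no call to lose, so the share among called genes is larger than 151 of 381. A list's count against the 2 late expo arrays is given where it moved by more than 1.5 times.

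Markers of other states were checked on the 4 arrays. Of the 7 genes of a cells, the strain's mating type, MFA1 and MFA2 for the a-factor pheromone were at 685.1 to 3472.6 and ASG7 was lowest, at 12 to 34.1. Of the alpha-cell genes, STE3 and SAG1 were at 12 to 60.3 and MF(ALPHA)1 reached 109.8 in post diauxic culture 2. DAN1, a cell wall gene of anaerobic cultures, was at the floor in both arrays of culture 1 but at 159.6 in expo and 493.5 in post diauxic of culture 2. TIR1, of the same class, was at 120.6 and 62.1 in culture 1 and at 862.7 and 1371.5 in culture 2, and ANB1 was at 40.4 and 12 against 183.7 and 79.6. In the anaerobic expo and late SP arrays (SP is stationary phase) DAN1 was at 5140.1 to 7989.6. Not every gene of this kind was higher in culture 2. In the list of 17 tested genes, 4 were more than 2-fold higher in expo culture 2 than in expo culture 1, and 2 the other way. Between the post diauxic cultures 6 were higher in culture 2 and 0 in culture 1. Of the 17 tested genes of the list for anaerobic cultures, 2 were called higher and 2 lower in post diauxic, of which 1 and 0 held without any 1 array, and the part of this signal of culture 2 in the other results was not tested.

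Of 6067 probe sets of protein-coding genes tested with limma, 991 (16.3%) were called higher in post diauxic and 226 (3.73%) lower, 1217 (20.1%) in all. Calls required a change of 2-fold or more and a p under 0.05 after the adjustment of Benjamini and Hochberg. With 1 probe set per gene, 869 of 5266 genes (16.5%) were called higher and 172 (3.27%) lower, 1041 (19.8%) in all, and these shares are the background for the gene lists. The median log2 change over all genes was 0.294, with quartiles of -0.14 and 0.76, and the changes below include this shift. After quantile normalization the median was -0.0355, and 593 probe sets were called higher and 343 lower, so that the share of higher calls fell from 81.4% to 63.4%. The change was larger upward: 246 genes were called higher by at least 4-fold and 13 lower, and 61 were higher by at least 16-fold and 2 lower. Without expo culture 1, 1195 genes were called higher and 267 lower, and without expo culture 2 only 592 and 129, with 389 of the 1041 calls lost. The calls of 491 higher and 88 lower genes held when any 1 of the 4 arrays was left out. Against late expo in place of expo, 678 genes were higher and 157 lower.

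**Figure D1:**
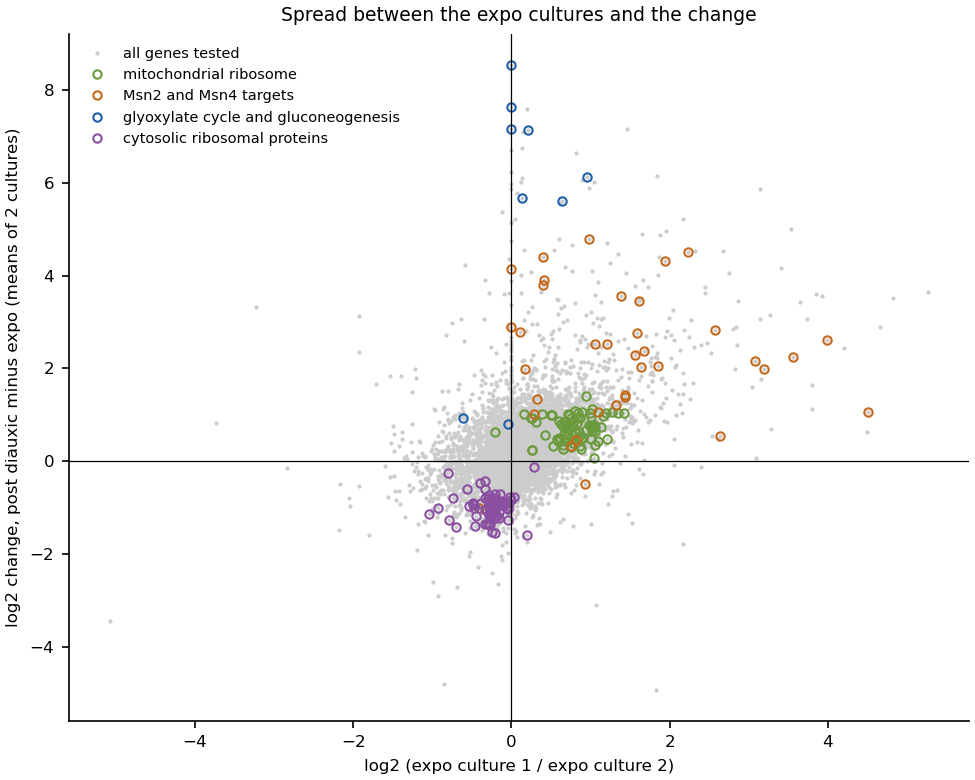
Each point is a gene, placed by the log2 ratio of its signals in expo culture 1 and expo culture 2 (x axis) and by its mean log2 change from expo to post diauxic (y axis), with 4 gene lists in colour. Genes of the glyoxylate cycle rose by up to 8.55, and none of that list differed more than 2-fold between the expo cultures, whereas the targets of Msn2 and Msn4 and the mitochondrial ribosomal proteins lay mostly to the right of 0, higher in expo culture 1.

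The genes with the largest rises included enzymes of gluconeogenesis and ethanol oxidation as well as a hexose transporter. A value of 12 stands for the floor, and where an array is at 12 the fitted change is limited by the floor and its standard error can be too small. MLS1, malate synthase of the glyoxylate cycle, was at the floor in both expo cultures and at 4808.5 and 4183 in post diauxic, at least 374-fold higher (adjusted p = 3.7e-14). FBP1, fructose-1,6-bisphosphatase of gluconeogenesis, went from the floor to 2461.4 and 2340.7, at least 200-fold. SFC1, the mitochondrial carrier that exchanges succinate for fumarate, went from the floor to 1772.6 and 1693.4, at least 144-fold. For all 3 the groups did not overlap, and the 2 post diauxic cultures lay close together. PCK1, the phosphoenolpyruvate carboxykinase that starts gluconeogenesis, had 33.8 and 29.2 in expo and 4473.9 and 4388.5 in post diauxic, a log2 change of 7.14 ± 0.25 (standard error of the fit, n = 2 cultures per group, adjusted p = 7.54e-12). ADH2, the alcohol dehydrogenase that oxidises ethanol, had 31.4 and 28.3 against 3780 and 4387 (7.09 ± 0.25, adjusted p = 1.24e-11). HXT5, a hexose transporter made during slow growth, had 13.7 and 12 against 2610.1 and 2369.1, a change limited by the floor. SPG4 and RGI2, described further on, also started at or next to the floor.

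Fewer genes fell, and the largest falls were in genes of several kinds. HXT3, a low-affinity glucose transporter, had 2985.6 and 5408.8 in expo and 119 and 172.9 in post diauxic, a log2 change of -4.81 ± 0.31 (adjusted p = 1.46e-08). HXT4 had 2608.1 and 736.6 against 25.5 and 81.1 (-4.93 ± 0.65, adjusted p = 4.19e-05). HXT1 was called lower by 3.46 on the log2 scale with an adjusted p of 0.0109, but the expo arrays differed by more than this, and the call was lost without expo culture 2 or post diauxic culture 2. CDC19, the main pyruvate kinase, fell from 9297.3 and 10975.5 to 1569.8 and 2299.2 (-2.41 ± 0.21, adjusted p = 6.06e-07), and PDC1, pyruvate decarboxylase, from 5810.1 and 7774.8 to 1259.4 and 1514.6 (-2.28 ± 0.30, adjusted p = 3.56e-05). GND1 of the pentose phosphate pathway fell from 4076.6 and 4574.7 to 659.4 and 716.6. EEB1, which makes ethyl esters, had 429 and 204.1 against 24.4 and 48.5, and GPP1, a glycerol-3-phosphatase, had 2135.5 and 4228.3 against 400.5 and 614.5. ARI1, an aldehyde reductase, had 98.5 and 158 against 16.5 and 22.1 (-2.71 ± 0.21), DYS1, deoxyhypusine synthase, 1908.6 and 2073.3 against 419.5 and 489.5 (-2.13 ± 0.35), and HMS2 131 and 190.4 against 32.2 and 44.8 (-2.06 ± 0.31). The glucose repressor MIG2 went from 65.6 and 125.2 to the floor in both cultures, at least 7.55-fold lower.

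**Figure D2:**
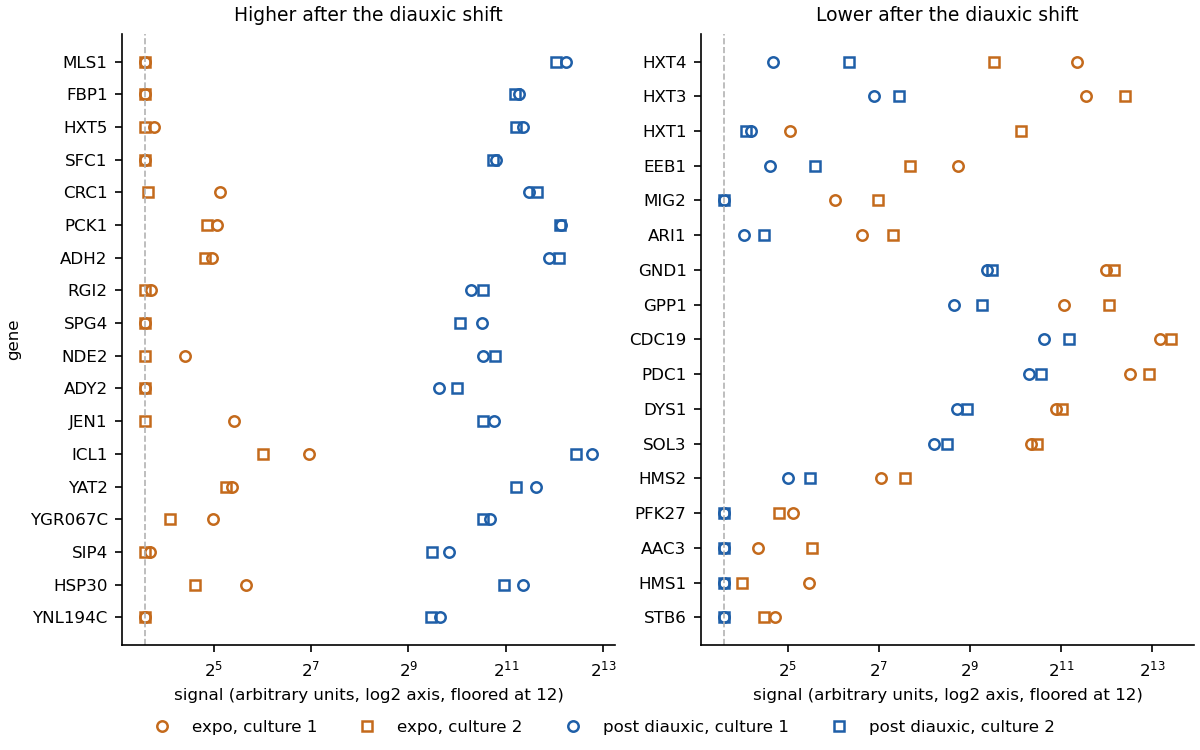
Signals on the 4 arrays (x axis, log2 scale, floored at 12) of the genes with the largest changes among those called, 18 higher (left) and 17 lower (right). Circles are culture 1 and squares culture 2, orange is expo and blue post diauxic, and the dashed line is the floor. Of the genes that fell, HXT1 is the one whose expo cultures lay farthest apart, at 33.1 and 1117.7.

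The uptake and activation of ethanol and acetate were described by a list of 8 genes, of which 7 were called higher and none lower, with a median log2 change of 4.47 against 0.294 for all genes. All 7 calls held without any 1 array. ADY2, an acetate transporter, went from the floor to 795.2 and 1025 in post diauxic, at least 75.2-fold. ACS1, the acetyl-CoA synthetase repressed by glucose, had 88.2 and 57.3 in expo and 3168.9 and 3690.3 in post diauxic (log2 change 5.59 ± 0.27). ALD4, the mitochondrial aldehyde dehydrogenase, had 1154.5 and 263 against 2912.8 and 2883.8. The cytosolic aldehyde dehydrogenase ALD6 was at 1948.7 and 2389 in expo and 1880 and 2822.7 in post diauxic, where the groups overlapped and the log2 change was 0.09 ± 0.19. For lactate and glycerol, 6 of 9 genes were called higher, 5 of them without any 1 array. JEN1, the lactate and pyruvate permease, had 42.8 and 12 against 1727.8 and 1481.5, and STL1, a glycerol importer, went from the floor to 500.5 and 372.2.

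The glyoxylate cycle and gluconeogenesis list had 7 of 9 genes called higher and none lower, with a median log2 change of 6.12. Beside MLS1, FBP1, SFC1 and PCK1 these were ICL1, IDP2 and MDH2, and all 7 held without any 1 array. ICL1, isocitrate lyase, had 124.9 and 64.3 in expo and 7014.4 and 5555 in post diauxic (6.12 ± 0.25). MDH2, the cytosolic malate dehydrogenase, had 118.9 and 76.6 against 4722.7 and 4676.6. CIT2, a peroxisomal citrate synthase, and PYC1, a pyruvate carboxylase, did not reach a 2-fold change, with log2 changes of 0.92 ± 0.20 and 0.81 ± 0.22 (adjusted p = 0.00243 and 0.0101). The carnitine shuttle, which carries acetyl groups into mitochondria, was called higher in all 5 members. CRC1, the carnitine carrier, had 34.8 and 12.6 against 2843.9 and 3197.4, and YAT1, a carnitine acetyltransferase, had 99.3 and 107.9 against 4151.4 and 4473.8. The 4 genes of the methylcitrate pathway, which handles propionyl-CoA, were also called higher, and the calls of both lists held without any 1 array, with CIT3 going from 12 and 12.3 to 220 and 281.9.

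Calls in the lists of respiration came with smaller changes. In the tricarboxylic acid cycle 12 of 16 genes were called higher, with a median log2 change of 1.46, and 9 of the calls held without any 1 array. SDH1, the flavoprotein of succinate dehydrogenase, had 734.6 and 162 in expo and 2461.8 and 2440.7 in post diauxic (2.83 ± 0.50, adjusted p = 0.000572). IDH2, a subunit of isocitrate dehydrogenase, was at 4612.5 and 3129.8 against 5563.1 and 4260.2 (0.36 ± 0.25), where the groups overlapped. Among NADH dehydrogenases, NDE2 had 21.2 and 12 against 1472.1 and 1752.1, NDI1 1070.8 and 302.2 against 2789.2 and 2584.3, and NDE1 2445.7 and 1346.6 against 3518.3 and 2905.1, the last with a log2 change of 0.82 ± 0.30 and no call.

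Calls in the remaining respiratory complexes rested largely on expo culture 2. In complex III with cytochrome c, 4 of 11 genes were called higher, 8 without expo culture 1 and 1 without expo culture 2. In complex IV, 3 of 10 were called, 6 without expo culture 1 and 0 without expo culture 2, and in ATP synthase 9 of 17, 10 and 1. After quantile normalization 9, 7 and 10 of these genes were called higher. The mitochondrial ribosome had 13 of 74 genes called higher (17.6%, near the background of 16.5%), but 45 without expo culture 1 and 0 without expo culture 2, 2 after quantile normalization and 1 against late expo. All 74 had a positive log2 change, with a median of 0.743. COX5A, a subunit of cytochrome c oxidase, had 1743.8 and 820.8 against 3174.4 and 2970.9, a call that was lost without expo culture 2. COX26, of the same complex, had 494.3 and 19.5 against 724.9 and 744.5, and its call was lost without expo culture 2 and also without either post diauxic culture. CYC1, the main cytochrome c, was at 4074.3 and 3218.5 against 4045.8 and 3944.4 (0.14 ± 0.25), whereas the isoform CYC7 went from 86.5 and 15.8 to 538.7 and 389.3 (3.63 ± 0.60, adjusted p = 0.000328).

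Beta-oxidation of fatty acids in peroxisomes was called higher in 13 of 18 genes, 11 of them without any 1 array. CTA1, the peroxisomal catalase, had 12.6 and 12 in expo and 658.7 and 705.1 in post diauxic. POT1, the thiolase of the pathway, had 18.2 and 12 against 389.8 and 424.1, and FOX2, its multifunctional enzyme, had 78.6 and 50.8 against 556.4 and 693.5. POX1, the acyl-CoA oxidase of the first step, went from the floor to 37.6 and 78.5, at least 4.53-fold. Peroxins, which assemble peroxisomes, were called higher in 9 of 26 cases, 5 of them without any 1 array, but in 2 after quantile normalization and in 5 against late expo. The largest change was that of PEX21, at 90.7 and 138 against 664.1 and 675.3.

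**Figure D3:**
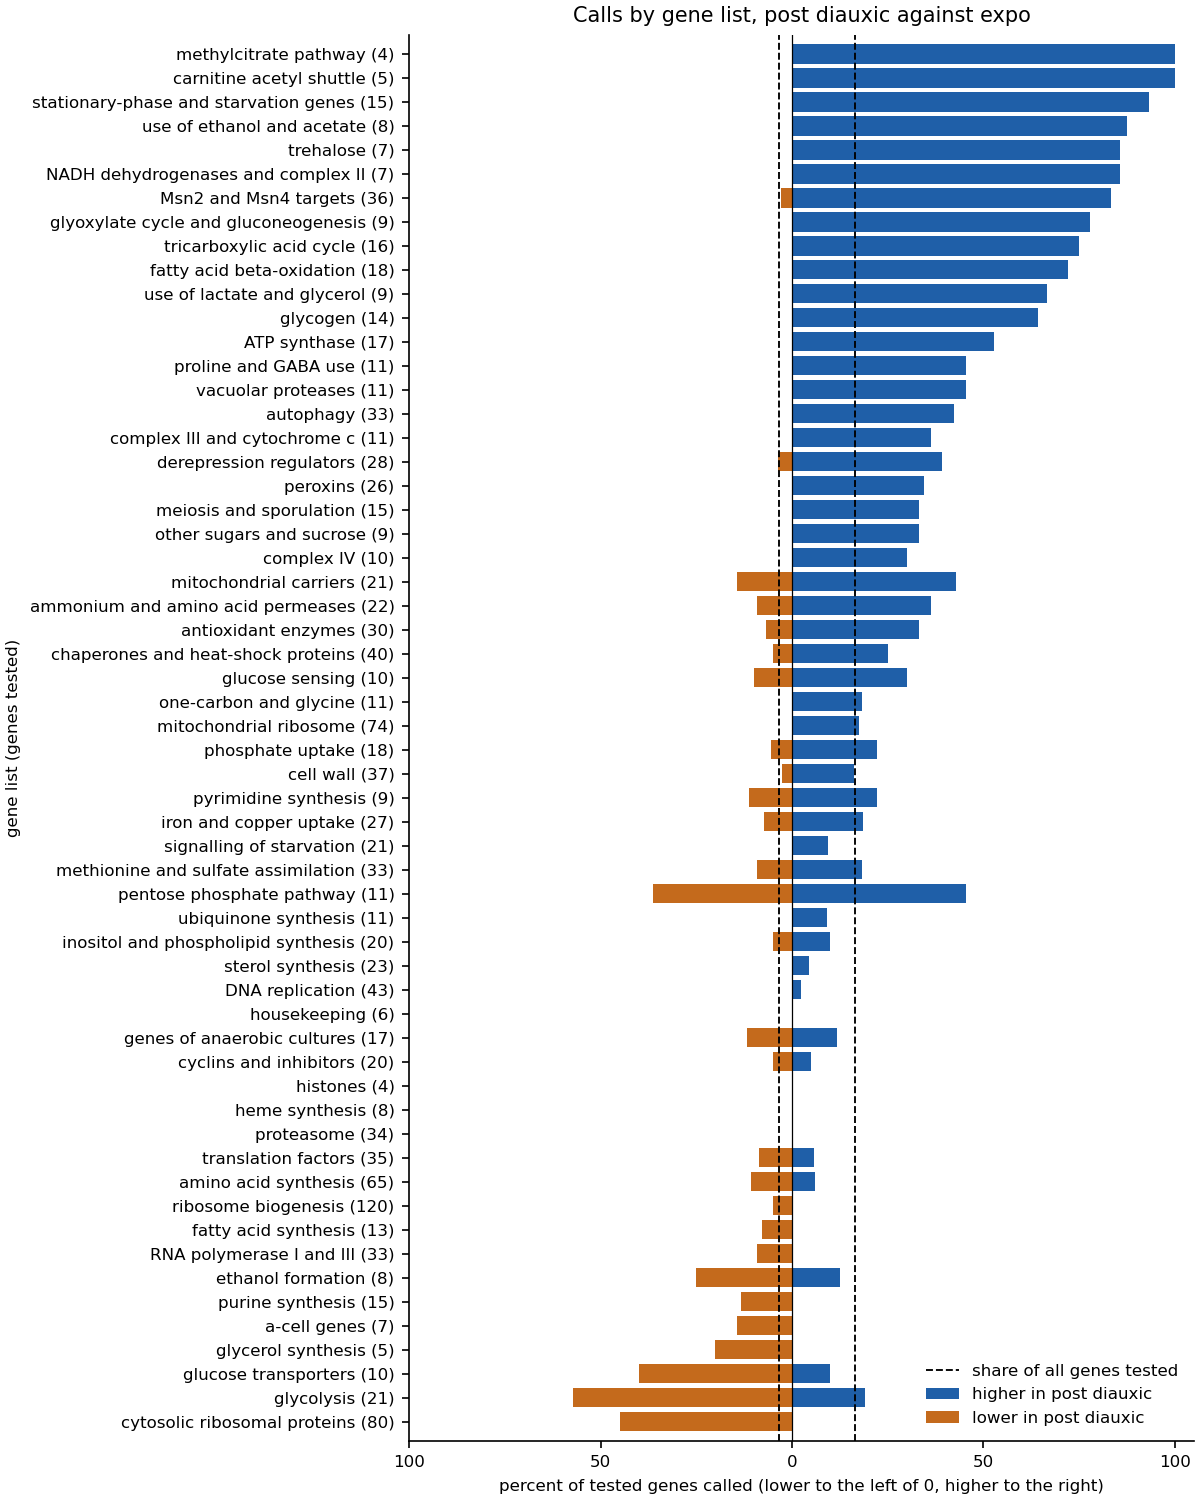
Percent of the tested genes of each list (number tested in brackets) that were called higher (blue, right of 0) or lower (orange, left of 0) in post diauxic than in expo. The dashed lines are the shares over all genes tested, 16.5% higher and 3.27% lower, and the calls of the mitochondrial ribosome and complex IV were all lost without expo culture 2.

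The regulators of derepression were themselves higher in 11 of 28 cases and lower in 1, MIG2, of which 8 and 1 held without any 1 array, and against late expo 8 were higher and 2 lower. SIP4, an activator of gluconeogenic genes, had 13 and 12 in expo and 912.9 and 716.8 in post diauxic. ADR1, the activator of ADH2 and of peroxisomal genes, had 26.3 and 12 against 226.8 and 164.1, and CAT8 had 22.9 and 12 against 116.7 and 90.8. HAP4, the regulated subunit of the Hap complex, had 742.8 and 219.4 against 1808.7 and 1531.2 (2.04 ± 0.45, adjusted p = 0.0024). Its partners HAP2, HAP3 and HAP5 changed by 1.02 to 1.11 with calls that were lost without expo culture 2. The call of HAP2 was also lost without post diauxic culture 2, and that of HAP5 without post diauxic culture 1. Among glucose sensors, SNF3, the sensor of low glucose, had 50 and 14.7 against 148.8 and 108.8, and STD1, which acts with the sensors, fell from 171.6 and 174.4 to 77.7 and 67.8.

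Glycolysis moved against these groups: 12 of 21 genes were called lower and 4 higher, with a median log2 change of -1.23, whereas 8 were lower and 1 higher after quantile normalization, and 12 lower and 1 higher against late expo. The calls of 10 of the lower genes and of none of the higher genes held without any 1 array. PGK1 fell from 7748.9 and 11136.3 to 1573.6 and 3668.7 (-1.95 ± 0.43), and GPM1, phosphoglycerate mutase, from 8370.1 and 9121.4 to 2316.9 and 2690.6 (-1.81 ± 0.20). Both subunits of phosphofructokinase fell, PFK1 by 1.24 and PFK2 by 1.28 on the log2 scale, whereas GLK1, glucokinase, was at 1896.1 and 207.2 against 2774.3 and 2198.4, a call lost without expo culture 2 or either post diauxic culture. PFK27, which makes the activator fructose-2,6-bisphosphate, went from 34.7 and 27.7 to the floor, at least 2.58-fold lower.

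For several steps, 1 isoenzyme rose while the other fell. Of 22 pairs of genes for the same or a related step, 7 had the first member called higher and the other called lower. ADH1, the alcohol dehydrogenase of fermentation, fell from 11048.6 and 12511 to 4228.1 and 4621.5 while ADH2 rose. GND2 had 25.8 and 23.9 against 165.7 and 177.4 while GND1 fell, TKL2 had 12 and 15.1 against 199.5 and 206.8 while TKL1 had 2735.9 and 2961.3 against 1359.4 and 1229.6, and NQM1 had 20.4 and 12.8 against 343 and 252.2 while TAL1 had 930.2 and 895.7 against 298.5 and 350.2. The oxidative and non-oxidative pentose phosphate pathway thus held both directions, with 5 of 11 genes higher and 4 lower, of which 4 and 4 held without any 1 array. The remaining 3 of the 7 were PYK2 with CDC19, PDC6 with PDC1, and the Hsp70 genes SSA3 with SSA2, where SSA2 fell from 10774 and 13166.6 to 4416.6 and 4038.5. PYK2 rested on single arrays, since its call was lost without expo culture 2 and without post diauxic culture 2. Levels of different probe sets are not on 1 scale, and members of such pairs are similar in sequence, so signal shared between them was not tested.

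**Figure D4:**
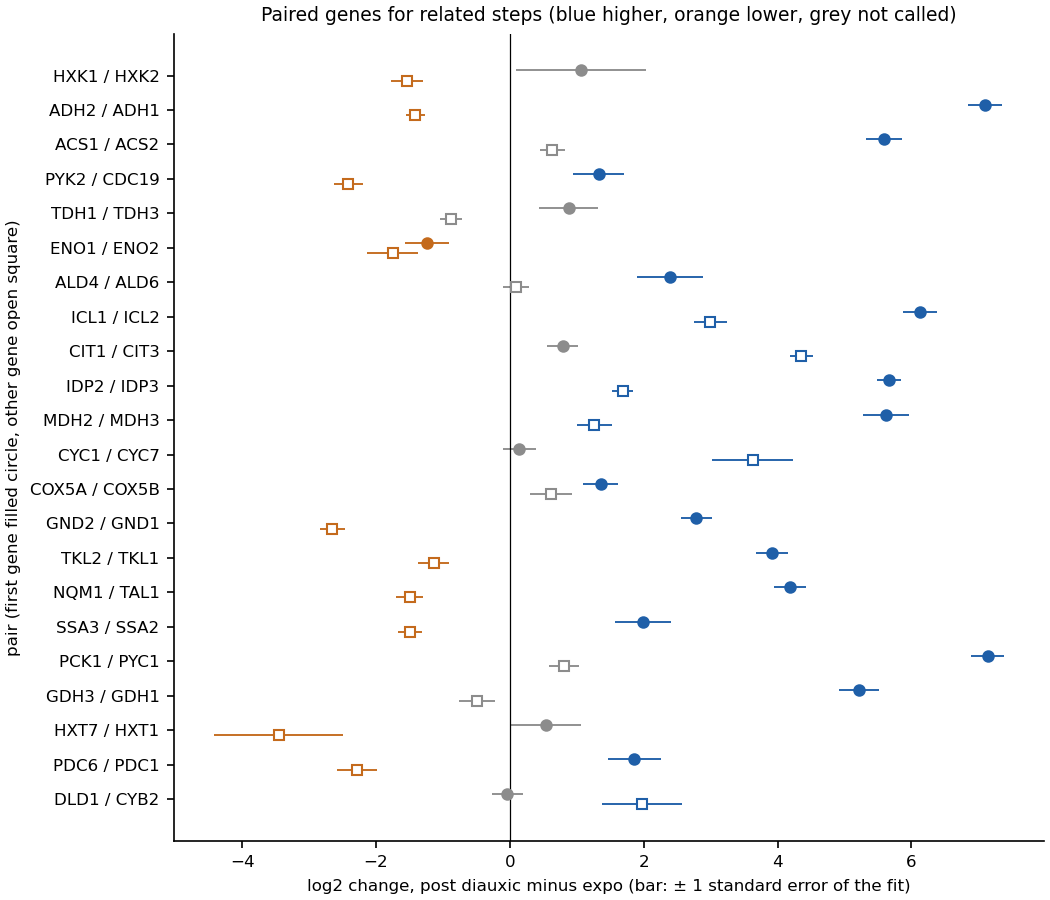
Log2 change from expo to post diauxic (x axis) of both members of 22 gene pairs, with bars of ± 1 standard error of the fit. Blue is called higher, orange called lower and grey not called. ADH2 with ADH1 is the widest split, at 7.09 and -1.41.

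Transcripts of genes for storage carbohydrate metabolism and the stress response tended to be higher in post diauxic, to an extent that differed with the expo culture used. Of 36 targets of Msn2 and Msn4, activators of the general stress response, 30 were called higher and 1, GRE2, lower, a call lost without expo culture 2 or post diauxic culture 2, 21 of the higher calls held without any 1 array, and 23 were higher against late expo. In this list 22 genes were more than 2-fold higher in expo culture 1 than in expo culture 2 and none the other way. HSP12, a small heat-shock protein of membranes, had 528.6 and 402.4 in expo and 6954.9 and 5940.3 in post diauxic (3.80 ± 0.22, adjusted p = 5.49e-09). SPI1, a cell wall protein, had 123.9 and 62.8 against 2422.7 and 2445.4, and CTT1, the cytosolic catalase, went from the floor to 93.9 and 84.4. In glycogen metabolism 9 of 14 genes were higher and in trehalose metabolism 6 of 7, of which 7 and 3 held without any 1 array. PGM2, phosphoglucomutase, was at 600.2 and 37.8 against 938.5 and 900.6, so that the expo cultures differed by more than culture 1 did between phases, and its call was lost without expo culture 2 or either post diauxic culture. Of 15 genes known from stationary phase and starvation, 14 were higher with a median of 3.06, 13 of them without any 1 array, among them SPG4, which went from the floor to 1459.5 and 1072.3, and SPG1, from the floor to 777.2 and 625.8. In the wider list of 40 chaperones 10 were higher and 2 lower (SSA2 and HSP31), 8 and 2 of them without any 1 array and 8 and 1 against late expo, with a median log2 change of 0.0992.

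Of 33 autophagy genes, 14 were called higher and none lower, 12 of them without any 1 array. ATG39, a receptor for autophagy of the nucleus and endoplasmic reticulum, had 60 and 12 against 633.6 and 614.6, ATG36, a receptor for peroxisomes, 41.4 and 27.2 against 231.7 and 249.7, and ATG8, the core membrane protein, 291.5 and 134.5 against 545.9 and 730.5. None of the 34 proteasome genes was called by limma, although RPN5 had an adjusted p of 0.00151 at a log2 change of 0.76.

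Genes of ribosomes and of amino acid synthesis tended to be lower, mostly by less than the 2-fold that a call needed. DNA replication and the list of cyclins and inhibitors had medians of 0.11 and 0.0639, above 0 but below the 0.294 of all genes. In these 2 lists, 26 of 43 and 11 of 20 genes had a positive log2 change, against 3504 of 5266 over all genes. After quantile normalization the medians of the 2 lists were -0.367 and -0.373, against -0.0355 for all genes. All 80 cytosolic ribosomal protein genes that could be tested with a probe set of their own had a negative log2 change, with a median of -0.97, and 36 were called lower. Without expo culture 1, 49 were called, without expo culture 2, 13, against late expo, 20, and after quantile normalization 7 with a median of -0.472. RPL13A had 5205.4 and 5990.3 in expo and 1846 and 1953.4 in post diauxic (-1.56 ± 0.32, adjusted p = 0.00168), and RPL7B had 3149.1 and 2737.4 against 831.4 and 1144.6. The 57 other listed genes of this group were not tested alone. For ribosome biogenesis the share called lower was 5%, near the background of 3.27%. Of 120 ribosome biogenesis genes 6 were called lower and none higher, with a median of -0.335, but 25 were lower after quantile normalization, 25 without expo culture 1, 0 without expo culture 2 and 3 against late expo. NOP1, fibrillarin, had 883.7 and 1314.4 against 451.3 and 512.3, a call lost without expo culture 2. Among 65 genes of amino acid synthesis 7 were lower and 4 higher, 3 of each without any 1 array, and 4 were lower and 5 higher against late expo, with SER2 at 530 and 545.8 against 127.2 and 144.2 and the opposite pair of transaminases BAT1, which fell by 1.33, and BAT2, which rose by 2.89 on the log2 scale.

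A few groups tied to nutrients other than carbon held members with large rises. Of 22 ammonium and amino acid permeases, 8 were called higher, all without any 1 array, and 2 lower, GNP1 and TPO1, calls that were both lost without expo culture 2. TPO1, though in this list, is a polyamine transporter. Against late expo 8 genes of the list were higher and 1 lower. PUT4, the proline permease, had 136.7 and 37.3 in expo and 1749.7 and 2524.9 in post diauxic (4.88 ± 0.42, adjusted p = 5.48e-07). DAL5, the allantoate permease, had 78.5 and 83.8 against 1036.6 and 942.3, and MEP2, the ammonium permease, 516.8 and 552.1 against 2413.6 and 2259.2. GDH3, an NADP-dependent glutamate dehydrogenase, had 32.6 and 31.6 against 1146.3 and 1252.1, while GDH1 was at 3823.9 and 3932 against 3061.5 and 2506.1 and was not called. PHO89, a sodium-phosphate symporter, had 38.8 and 34.8 against 963.2 and 770.9, but 4 of 18 genes of phosphate uptake were higher, near the background. INO1, the enzyme that starts inositol synthesis, had 100.3 and 39.3 against 1159.4 and 1657.4 (4.46 ± 0.47, adjusted p = 5.03e-06), and PIS1, which uses inositol for phosphatidylinositol, fell from 1535.7 and 1339.8 to 400.4 and 461.6. CTR3, a copper transporter, had 114.4 and 29.6 against 1983.4 and 1655.3. In iron and copper uptake 5 of 27 genes were called higher (18.5%, near the background of 16.5%) and 2 lower, of which 5 and 1 held without any 1 array. In inositol and phospholipid synthesis, the list of INO1, 2 of 20 were higher (10%) and 1 lower, all without any 1 array. Against late expo 2 genes of that list were higher and 3 lower.

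The phases around post diauxic place these levels in the course of the culture. The median of the glyoxylate cycle list, as a log2 difference from the expo mean, was 0 and 0.128 in the late expo cultures, 6.40 and 6.55 at the diauxic shift, and 6.29 and 5.95 in post diauxic. Beta-oxidation was at 1.55 and 1.64 in post diauxic but at 4.80 and 4.94 in early SP. The ribosome groups were lower at the diauxic shift than in post diauxic. Ribosomal proteins were at -2.46 and -1.94 and then at -0.961 and -0.985. Ribosome biogenesis was at -1.56 and -1.23 and then at -0.392 and -0.235. Purine synthesis had the same order, with -2.16 and -1.73 followed by -0.557 and -0.638. The targets of Msn2 and Msn4 were at 3.59 and 3.27 at the shift and at 2.39 and 2.12 in post diauxic. In all 4 of these lists post diauxic lay between expo and the diauxic shift in both cultures, an order given as a description with no test.

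**Figure D5:**
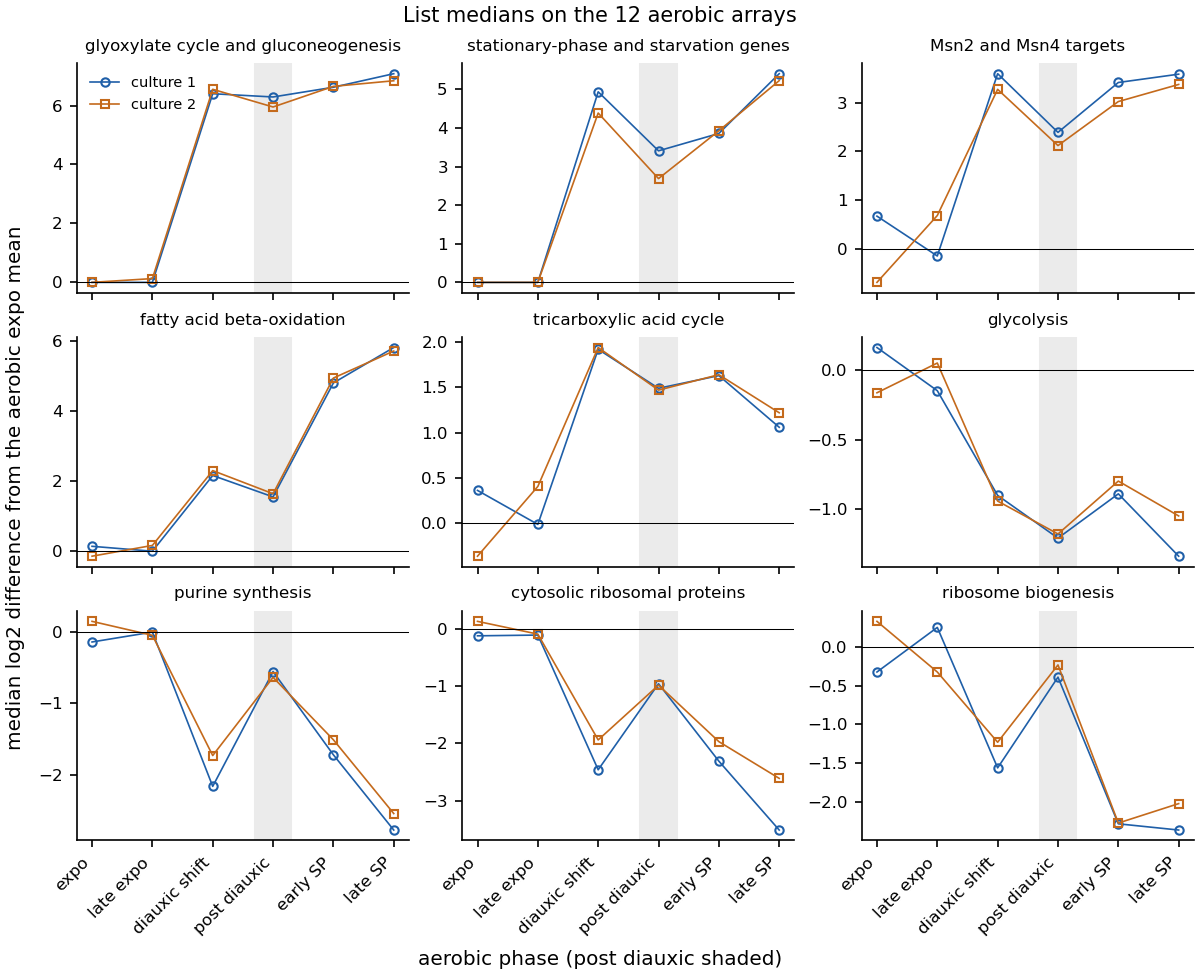
Median log2 difference from the aerobic expo mean (y axis) of 9 gene lists on the 12 aerobic arrays, in order of phase (x axis), with culture 1 as blue circles and culture 2 as orange squares. Post diauxic is shaded. Ribosomal proteins, ribosome biogenesis and purine synthesis were lower at the diauxic shift than in post diauxic in both cultures.

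Anaerobic cultures also run out of glucose but cannot respire the ethanol. Their late SP arrays were therefore set against their expo arrays, where 1255 genes (23.8%) were called higher and 1571 (29.8%) lower, 2826 (53.7%) in all, and the difference between the aerobic and the anaerobic change was tested per gene. It was called for 2404 genes (45.7%), higher in the aerobic comparison for 1732 (32.9%) and lower for 672 (12.8%). A difference called higher can be a larger aerobic rise or a larger anaerobic fall. Of the 4508 genes above the floor on all 8 arrays, 1483 were higher and 559 lower. Late SP cells no longer grew and post diauxic cells did, so the oxygen supply and the growth state cannot be told apart here. ADH2 was at 30.8 and 21.9 in anaerobic expo and 35.3 and 21.5 in anaerobic late SP, and the aerobic change exceeded this by 7.01 ± 0.36 on the log2 scale (adjusted p = 3.51e-09). ICL1 was at 68.4 and 84.2 and then at 140.6 and 104.2, with a difference of 5.45. The rises of ADH2 and ICL1 were thus larger in the aerobic cultures, beyond the spread between cultures. FBP1 and SFC1 were at 12 to 12.7 in those anaerobic arrays, and MLS1 was at the floor and then at 29 and 39.5, so that only their final levels can be set side by side.

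Some genes and lists rose more in the anaerobic cultures. For complex IV the median log2 change was 3.16, with 10 of 10 genes called higher, against 0.814 in the aerobic comparison. For complex III with cytochrome c it was 3.54 against 0.98, and for ATP synthase 2.08 against 1.06. For the targets of Msn2 and Msn4 it was 4.12 against 2.27. Lists that went the other way included the glyoxylate cycle (0.415 against 6.12) and the carnitine shuttle (2.79 against 5.88). Signals at the floor limit these medians. HSP30, a plasma membrane heat-shock protein, had 32.1 and 30.8 in anaerobic expo and 8605.7 and 9215.5 in late SP, against 50.5 and 24.5 and then 2614.8 and 1984 in the aerobic pair (difference -2.13). HAP4 went from 37.3 and 45.8 to 2562.6 and 3052.5 (difference -4.04), from a lower start than in aerobic expo. RGI2, a gene of respiratory growth, was at the floor in both anaerobic expo arrays and at 4497.2 and 4742 in late SP, beside 13.2 and 12 and then 1243.2 and 1471.5 in the aerobic pair. SPG4 was at the floor and then at 4169.5 and 5063.1, and CYC7 at 12 and 13.3 and then at 3348.4 and 4230.7. For these 3 a start at the floor leaves the size of the rise unmeasured. CDC19 had a smaller change in the anaerobic cultures, from 9562.3 and 9108 to 6620.7 and 7357.4, with a difference of -1.99 (adjusted p = 8.95e-05), and PDC1 had a difference of -1.10 (adjusted p = 0.0382). INO1, which rose in the aerobic comparison, was at 244.5 and 263 and then at 105.3 and 112.3 in the anaerobic one (difference 5.69). For HXT3, GND1 and SOL3, which fell in both, the difference was not called, at -0.94, -0.56 and 0.28.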

How the data were processed

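RNA of 20 culture samples was hybridised to Affymetrix YG-S98 arrays, 1 array per sample. The authors deposited 1 intensity value for each probe set, on a linear scale and already scaled to a common average, and the software version behind them is not given in the sources used here. No further scaling was applied. Signals below 12 were set to 12, and of 6647 features of protein-coding genes the 580 whose highest signal was below 20 were left out. Genes were named through the platform annotation and updated through RefSeq, and a gene with several probe sets was represented by the one that matches it alone with the highest mean log2 signal. Among 261 genes with several probe sets, 80 had different calls between them and 1 opposite calls. Features outside protein-coding genes were tested apart.

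In limma (version 3.58.1, R 4.3.3), log2 signals were modelled as 10 group means over 20 arrays, with 10 residual degrees of freedom. Adjusted p-values are limma's, after Benjamini and Hochberg, taken over every probe set tested. A fold against a group at the floor is a lower bound, and differences between the aerobic and anaerobic change are given only for genes above the floor on all 8 arrays. Per the labels, same-numbered aerobic samples come from the same culture. Their deviations in expo and post diauxic correlated with r = 0.17 over the probe sets (-0.555 to 0.373 over 15 pairs of aerobic phases), and a fit with the culture as a block is among the alternatives. Precision is limited by 2 cultures per group: the median standard error of a log2 change was 0.229.

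Named genes are the 12 genes per direction with the largest change among those called and measured in both groups, up to 6 per direction with 1 group at the floor, up to 6 of each list and a called member that goes against its list, both members of each pair, regulators of derepression and genes that the paper names. HXT1, HXK1, HXT7, DAN1, TIR1 and ANB1 were singled out for the spread between cultures after their values were seen, as were RPN5, ASG7, STE3, SAG1, MF(ALPHA)1, IDH2, ALD6 and other members given for not passing the test. The 59 gene lists, the pairs and the rule were chosen with earlier results of these data known. The alternatives were other floors, filters, scalings, fits and thresholds, each array left out in turn, and, chosen after seeing the data, late expo in place of expo. The fits were tested on simulated data with independent arrays and, for each probe set, the same spread in all groups. That test therefore does not cover the larger spread between the expo cultures. Python 3.11.15 and matplotlib 3.10.9 drew the figures.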

Additional observations from a re-analysis of the deposited data

Results flagged for a closer look

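The change from expo to the phase after glucose exhaustion differed between the aerobic and the anaerobic cultures, by limma's test of the difference, for 1732 genes upward and 672 downward. An upward difference can be a larger aerobic rise or a larger anaerobic fall. Of 120 ribosome biogenesis genes, 118 had an upward difference, against 32.9% of all genes. All 120 were called lower in the anaerobic comparison and 6 in the aerobic one. Of the 1732 and 672 genes, 1483 and 559 were above the floor on all 8 arrays compared. Among the genes with the largest aerobic rises that were above the floor on all 8, the aerobic change was higher on the log2 scale by 7.01 for ADH2, 5.45 for ICL1, 4.77 for YAT2, 4.36 for PCK1 and 3.74 for YGR067C. It was lower for HSP30, which rose in both regimes, with a difference of -2.13. Among the genes that fell most in the aerobic comparison, the differences were -1.10 for PDC1, -1.99 for CDC19, -3.21 for HXT4 and -4.56 for EEB1. EEB1 rose in the anaerobic comparison, from 126.9 and 103.1 in expo to 288.4 and 342.4 in late SP.

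Among 1408 probe sets outside protein-coding genes, which the comparisons above do not use, 6.61% were called higher in post diauxic and 5.97% lower. Of 1261 that the annotation does not list, 91 were higher and 55 lower. Of 76 tRNA probe sets 17 were called lower, and of 41 snoRNA probe sets 8 were lower.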

How the results depend on the processing

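The count of 991 higher and 226 lower probe sets kept its directions under every alternative run. No probe set called in both the main fit and an alternative changed sign, and no called value of a named gene did. Other probe sets that lost their call were not checked for a change of sign. Counts moved by more than 1.5 times under quantile normalization (593 higher, 343 lower), with the 4 arrays alone in the fit (304 higher, 93 lower, 397 in all) with no fold threshold (1885, 690 and 2575) and, for the lower calls, without expo culture 1 (385). Leaving out 1 array gave 691 to 1318 higher, 152 to 385 lower and 843 to 1703 in all, with both upper ends from the fit without expo culture 1 and both lower ends from that without expo culture 2. With the culture as a replicate block the count was 1214, and as a random block 990 higher and 226 lower (consensus correlation -0.00306). Late expo in place of expo, chosen after seeing the data, gave 773 higher and 189 lower, of which 852 were calls of the same sign as against expo. Of 381 named genes, 129 had the same call, or the same lack of a call, under every alternative. No alternative moved the counts of the difference from the anaerobic change by more than 1.5 times. The planned shares of promoter motifs were not run, since promoter sequences were not analysed here. With signals below 12 set to the floor, changes between such signals were not detectable, and a fold against the floor is a bound.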
